A study of Mus musculus with 6 samples.

Results

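The promoters of Slbp and Lsm10, both genes of histone mRNA processing, were examined in ATAC-seq libraries from mouse limb explants. ATAC-seq uses the Tn5 transposase to insert sequencing adapters into open DNA, so its signal reports chromatin accessibility. The members were taken by gene symbol. The deposited table holds 23500 promoter bins of 20 bp per library, 100 for each promoter, and these 2 promoters make up 0.851% of it. The genes were chosen by a measured value, the higher Lsm10 signal in ALI cultures after the libraries were brought to a common level. Differences between the cultures are therefore described without p-values. Wild-type mice of the outbred CD-1 stock gave all 6 libraries, which were made from explanted limbs at 1 day post amputation. For 3 libraries the limbs had been kept at an air-liquid interface (ALI), and for the other 3 in 96-well plates. The protocol names 4 limbs collected from each culture, with no statement on separate animals per library. The p-values below are thus set against a library-to-library spread that may be technical. ATAC-seq of a dissociated limb pools all its cells, so more cells with an open promoter and a more open promoter per cell cannot be told apart.

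Most mRNAs end in a poly(A) tail, but those of the replication-dependent histones end in a conserved stem-loop. Slbp encodes the stem-loop binding protein, which holds that structure during processing, export, translation and decay of the mRNA. Lsm10 encodes an Sm-like protein that, with Lsm11, takes the place of spliceosomal Sm proteins in the ring of the U7 small nuclear ribonucleoprotein, the particle that pairs with histone pre-mRNA downstream of the cleavage site. Cells need this machinery in S phase, when new DNA must be packed into nucleosomes. Of 32 genes listed for histone mRNA processing and binding, these 2 were in the table. It held 0 of 7 Sm ring genes, 0 of 16 S phase genes and none of the replication-dependent histone genes. Of the limb cell type markers looked up, it held 2 of 5 for epithelium, 1 of 5 for mesenchyme and none for muscle, blood, endothelium or cartilage, so the tissue label could not be checked on this table.

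The sequence upstream of each gene is shown because it carries the short motifs searched in these promoters. Both genes matched an entry in the RefSeq promoter table of build GRCm38.p6, whereas the signal table uses GRCm39, and RefSeq's start may not be the start used for the signal, so the sequences were not placed on the signal bins. Bases are given 5′ to 3′ on the gene's strand, up to the outermost annotated start, and capitals mark matches to the motifs named next.
Slbp, chr5:33652575-33652824, minus strand: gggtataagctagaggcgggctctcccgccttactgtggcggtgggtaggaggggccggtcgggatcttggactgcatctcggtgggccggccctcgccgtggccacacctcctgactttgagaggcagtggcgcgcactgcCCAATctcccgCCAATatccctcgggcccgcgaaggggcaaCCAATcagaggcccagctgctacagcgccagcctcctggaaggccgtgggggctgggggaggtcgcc
Lsm10, chr4:126096403-126096561, plus strand: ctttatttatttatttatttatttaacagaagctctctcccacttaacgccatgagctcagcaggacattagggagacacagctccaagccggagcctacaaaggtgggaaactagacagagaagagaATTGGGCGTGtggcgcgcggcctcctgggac

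The 250 bases upstream of RefSeq's listed start differed in composition, with 68.4% G and C and 18 CpG dinucleotides for Slbp against 54.4% and 12 for Lsm10. The medians over 32851 RefSeq promoters were 52.4% and 6. Short motifs were searched on both strands of these 250 bases. They were the CCAAT box, the GC box GGGCGG, the TATA box TATAAA, the E2F forms TTCCCGC and TTGGCGC, the NRF1 half-site GCGCATGC, the ETS site CCGGAAG, the hypoxia response cores ACGTG and GCGTG, and the ZNF143 core ACTACAA, the last added after the sequences were seen. Slbp held 3 CCAAT boxes, at −108, −97 and −67 bp, and no other match. As many were found in 2.79% of RefSeq promoters, and at least 1 in 33.8%. Lsm10 held 1 CCAAT box on the reverse strand, directly followed by GCGTG, which 28.2% of promoters hold. It also held the NRF1 half-site at −70 bp (2.26% of promoters) and the ZNF143 core at −91 bp (2.81%), both in the 91 bases that are not printed because another annotated Lsm10 transcript covers them. These matches are letters only and do not show that a factor binds.

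The libraries differed in level before any gene is considered. ALI replicate 2 had the highest mean signal over all promoters (18.6) and 96-well replicate 3 the next (14.7), against 10.1 to 12.4 in the other 4. Relative depth, read from the signal that a single read adds, ranged from 0.767 to 1.29. Mean coverage was 72.5 to 213.6 reads per base. The central 400 bp stood 5.17 to 6.27 times over the flanks in ALI libraries and 4.57 to 5.09 times in 96-well libraries. Flanks here are the outer 200 bp on each side of the 2000 bp window around the transcription start site (TSS). Every result between cultures below is touched by these differences. Window and part values are therefore given on the deposited scale and after median centring of the libraries, and the main ones also without the libraries that stand high. The part of these differences in the results was not tested.

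Slbp was among the most accessible promoters of the table and Lsm10 was near its middle. The Slbp TSS lies at position 33809919 of chromosome 5 on the minus strand, and that of Lsm10 at 125990417 of chromosome 4 on the plus strand (GRCm39). No annotation of that build was used, so exons and untranslated regions within the windows are not described. RefSeq places Slbp between Fam53a and Tmem129 and Lsm10 between Oscp1 and Stk40, and none of these neighbours was in the table. Mean window signal of Slbp was 39.5, 68.9 and 46.3 in ALI replicates 1 to 3 and 31.3, 31.4 and 45.7 in 96-well replicates 1 to 3. Its mean over the 6 libraries, 43.8 ± 13.9 (SD, n = 6), ranked 5 among all promoters. For Lsm10 the ALI values were 10.5, 17.9 and 13.05 and the 96-well values 8.14, 7.67 and 11.2. Its mean of 11.4 ± 3.75 (SD, n = 6) was higher than 51.3% of the other promoters, close to the median (10.6). ALI replicate 2 was the highest library for both genes, and the lowest was a 96-well library.

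**Figure D1:**
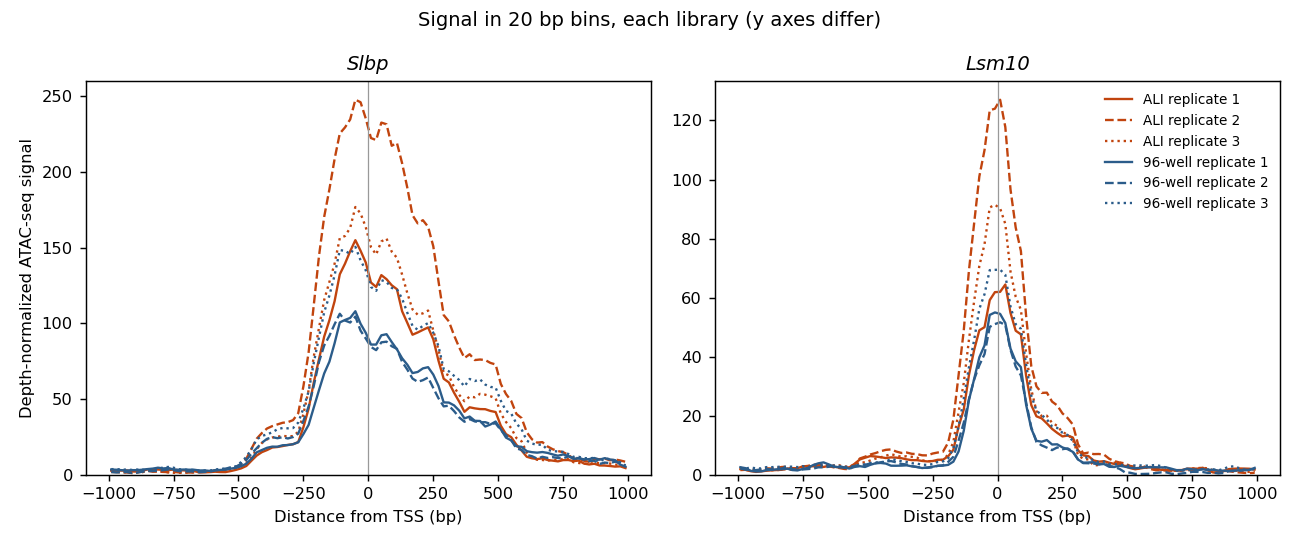
Depth-normalized ATAC-seq signal in 20 bp bins against distance from the TSS (bp), for Slbp (left) and Lsm10 (right), with 1 line per library and different y axes. Slbp formed a broad peak with its mean summit at 157.4 and Lsm10 a narrow one at 76.5, and ALI replicate 2 is the highest line in both.

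Within each library the Slbp window carried several times the signal of the Lsm10 window. The difference, Lsm10 minus Slbp, was −1.95 ± 0.08 (SD, n = 6) on the log2 scale, a 3.86-fold higher level at Slbp, and had the same sign in 6 of 6 libraries. The exact two-sided sign-flip permutation test over libraries gave p = 0.03125, the smallest that 6 pairs allow. Adjusted by Benjamini-Hochberg over the 7 measures compared between the promoters, this exact p was 0.0365. Such a p shows only that the order of both promoters repeated over the libraries. How many other pairs of promoters would reach it was not computed. The central 400 bp differed by −1.60 ± 0.06 (3.02-fold) and the flanks by −1.72 ± 0.18 (3.30-fold). The summit bin differed by −1.05 ± 0.12 (2.07-fold). Each of these 3 differences had 1 sign in 6 of 6 libraries and the same exact permutation p and adjusted p. The gap was thus smaller at the summit than over the whole window.

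Peak over surroundings gave no settled order of the genes. The central 400 bp stood 23.6 ± 8.93 (SD, n = 6) times over the flanks at Slbp and 25.9 ± 11.2 times at Lsm10, ranks 25 and 21 among all promoters. The log2 difference was 0.13 ± 0.21 (range −0.13 to 0.39, higher at Lsm10 in 4 of 6 libraries, exact sign-flip permutation p = 0.219 before and after adjustment). Its sign depended on the settings. It was −0.30 when the pseudocount of 1.06 was added to both signals, and 0.57 with the central 200 bp in place of the central 400 bp, and both of these opposite values passed (exact sign-flip permutation p = 0.03125 each).

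The peaks also differed in width. Width was read at 50% of the summit's height above the flanks. The Slbp peak measured 449.2, 472.02 and 453.8 bp in ALI replicates 1 to 3 and 460.2, 469.04 and 483.1 bp in 96-well replicates 1 to 3. The Lsm10 peak measured 222.5, 215.4 and 211.6 bp in ALI and 204.3, 212.8 and 223.97 bp in 96-well libraries. The narrowest Slbp library was thus far wider than the widest Lsm10 library. The difference, Lsm10 minus Slbp, was −249.5 ± 12.7 bp (SD, n = 6; same sign in 6 of 6 libraries, exact sign-flip permutation p = 0.03125, adjusted p = 0.0365). Among all promoters Slbp ranked 15 for width, Lsm10 was wider than 37.6% of the others, and the median was 254.9 bp.

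**Figure D2:**
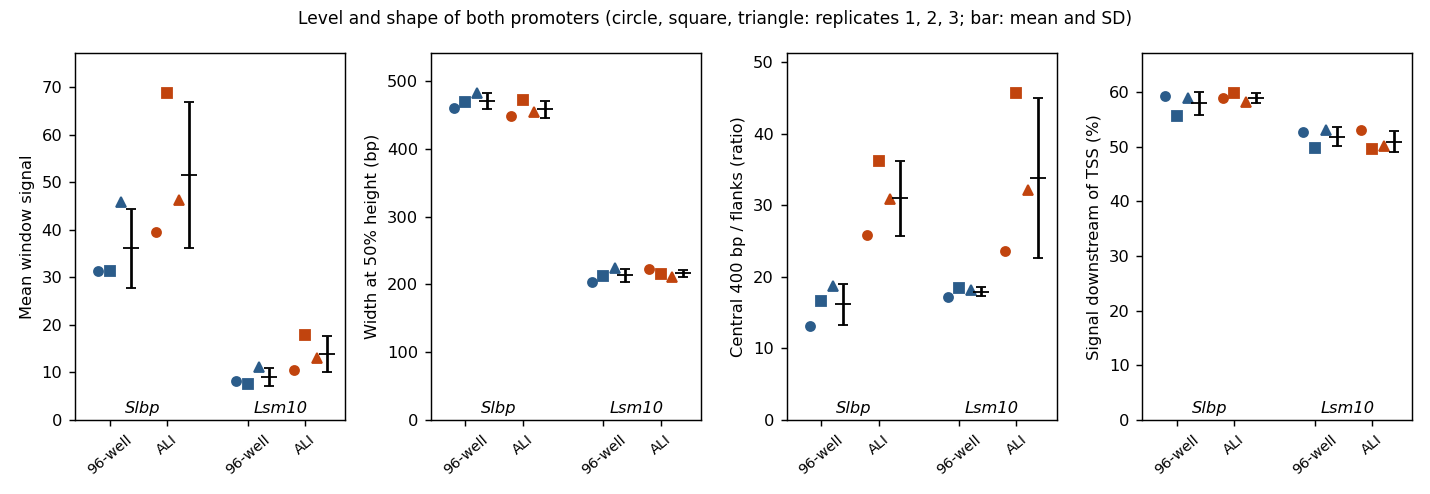
Mean window signal, peak width at 50% height (bp), ratio of the central 400 bp to the flanks, and percent of signal downstream of the TSS, for both genes in 96-well (blue) and ALI (orange-red) libraries. Symbols are single libraries and bars are the mean with SD of 3 libraries. Widths fall into separate bands for the genes, at 449.2 to 483.1 bp and 204.3 to 223.97 bp, and overlap between cultures within each gene.

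**Figure D3:**
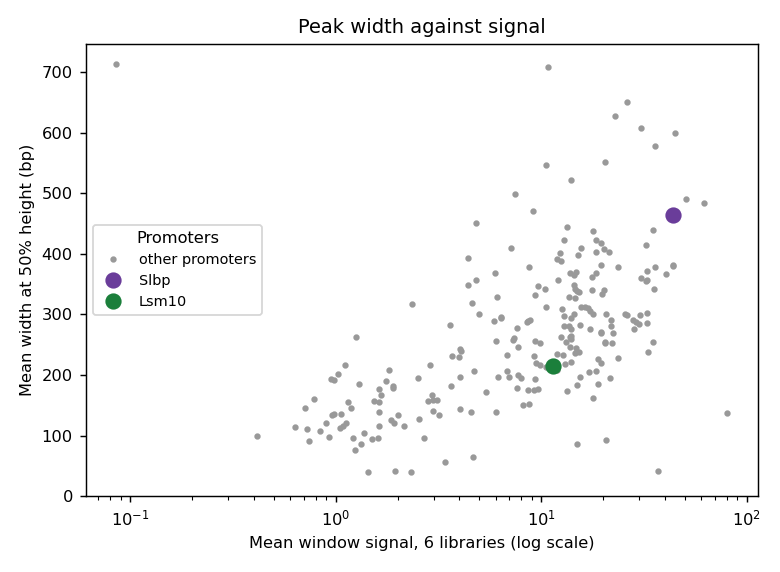
Mean peak width at 50% height (bp) against mean window signal (log axis) over the 6 libraries, with 1 point per promoter of the table. Slbp lies at 43.8 and 464.6 bp, and Lsm10 at 11.4 and 215.1 bp, below the median width of 254.9 bp.

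The outline of each peak was alike from library to library. At Slbp the left edge at 50% height lay at −198 ± 10.9 bp and the right edge at 266.3 ± 9.37 bp (SD, n = 6), so that the peak reached further into the gene than upstream of it. The summit lay at −50 bp in 5 libraries and at −110 bp in 96-well replicate 2. In 6 of 6 libraries the Slbp signal dipped just past the TSS, to a mean of 81.8% of its value at −50 bp, and rose again to 87.1% at 50 or 70 bp, positions picked after the profiles were seen. A shelf preceded the peak, and the part from −500 to −200 bp that holds it had a mean signal of 19.7 to 38.6. The Lsm10 peak was nearly symmetric, with edges at −109 ± 4.56 and 105.97 ± 5.01 bp and a summit between −10 and 30 bp. Of the window's signal, 58.4% ± 1.54 lay downstream of the TSS at Slbp and 51.3% ± 1.72 at Lsm10. That difference of −7.06 ± 1.84 percentage points had 1 sign in 6 of 6 libraries (exact sign-flip permutation p = 0.03125, adjusted p = 0.0365). Within the inner 1000 bp alone it was −2.84 points and missed the threshold (exact sign-flip permutation p = 0.0625, adjusted p = 0.0729).

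Both promoters had more signal in ALI than in 96-well explants. On the deposited scale Slbp averaged 36.1 ± 8.32 (SD, n = 3) in 96-well and 51.5 ± 15.4 in ALI libraries, a log2 change of 0.48 ± 0.32 (SE of the limma fit). Lsm10 averaged 9.003 ± 1.92 in 96-well and 13.8 ± 3.77 in ALI libraries, a change of 0.55 ± 0.28. The median change over all promoters was 0.14, and Lsm10 ranked 6 and Slbp 14 among them. The groups overlapped at both genes, since 96-well replicate 3 exceeded ALI replicate 1. Of all promoters, 3.83% had non-overlapping groups with ALI higher on this scale. The linear model limma called no promoter (0%) at a Benjamini-Hochberg adjusted p under 0.05, and 7 had an unadjusted p under 0.05. Without ALI replicate 2 the Slbp change was 0.26 and the Lsm10 change 0.36, so that this library moved both values by over 1.5 times. Without 96-well replicate 3 they were 0.66 and 0.70.

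Median centring brought the libraries of each culture together. It left changes of 0.32 ± 0.11 (SE) at Slbp and 0.38 ± 0.09 at Lsm10, against a median of −0.03 over all promoters, with the ranks 14 and 6 as before. Centred log2 signal of Slbp was 5.44, 5.75 and 5.58 in ALI replicates 1 to 3 and 5.25, 5.21 and 5.35 in 96-well replicates 1 to 3. That of Lsm10 was 3.62, 3.86 and 3.84 in ALI and 3.43, 3.32 and 3.42 in 96-well libraries. The groups then did not overlap at either gene, as for 21.7% of all promoters in the direction of ALI. On this scale limma called 21.7% of promoters, 11.5% higher in ALI with both genes among them, and since the genes were chosen with this contrast known, nothing is read from that count. Neither was called when eBayes was run without its mean-variance trend, where limma called 0% of promoters (65 had an unadjusted p under 0.05). Without ALI replicate 2 the centred changes were 0.25 and 0.35.

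The Slbp change was small on scales that remove the overall relation between level and change. Across all promoters, those of higher signal had larger centred changes (Spearman rho = 0.66 across promoters, which share the same 6 libraries and are not independent). Cyclic loess, which flattens this relation, left a change of 0.05 ± 0.04 (SE) at Slbp, rank 88, and 0.43 ± 0.07 at Lsm10, rank 3. Quantile normalization gave 0.07 ± 0.05 at Slbp, rank 78, and 0.44 ± 0.08 at Lsm10, rank 3. On these scales the Lsm10 change stood near the top of the table and the Slbp change well below it. Slbp ranked 5 in window signal, where both scalings leave less room for a change. Quantile normalization gives each rank the same value in every library, and loess fits few promoters at that level, Slbp among them. The genes were thus not equally free to change, and no contrast between them is read from these scales. A scale-free reading is the ratio of the genes within a library. On the log2 scale, Lsm10 minus Slbp averaged −2.002 ± 0.05 (SD, n = 3) in 96-well and −1.90 ± 0.06 in ALI libraries. The groups overlapped by a small margin, with ALI replicate 2 at −1.9444 and 96-well replicate 1 at −1.9435. This ratio thus did not fully separate the cultures.

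**Figure D4:**
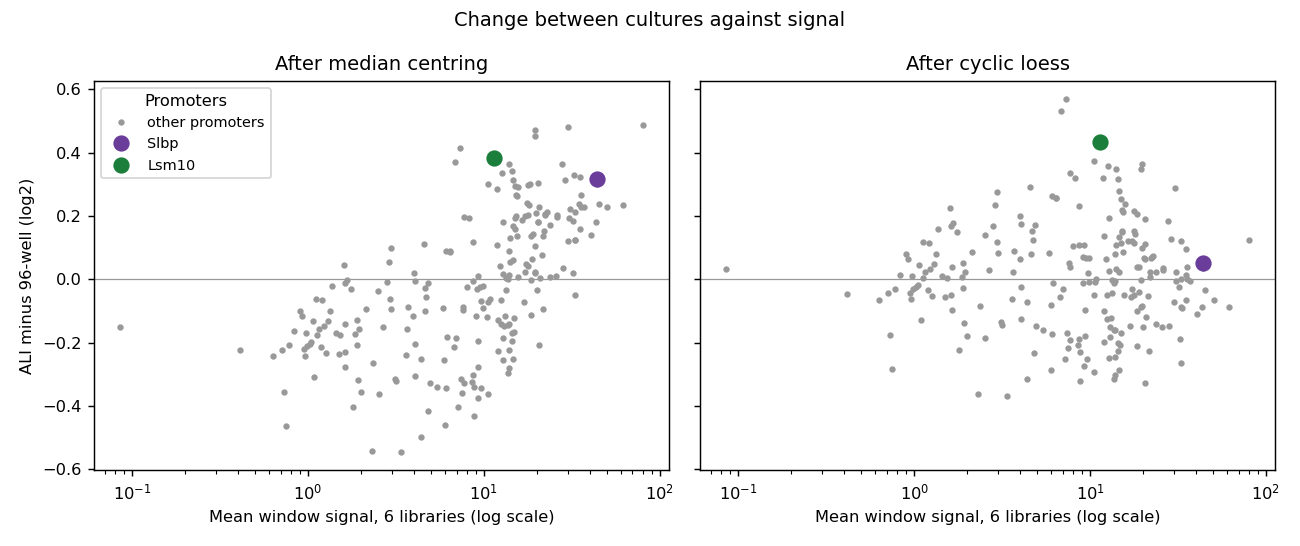
Log2 change, ALI minus 96-well, against mean window signal (log axis) for every promoter after median centring (left) and after cyclic loess (right). Slbp moves from 0.32 to 0.05 between the panels, while Lsm10 stays high, at 0.38 and 0.43.

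By part of the window, the mean ALI signal was higher from −200 to 500 bp at Slbp and from −500 to 500 bp at Lsm10, and differed little or was lower further out. At Slbp the mean from 0 to 200 bp was 115.4, 207.6 and 136.3 in ALI replicates 1 to 3 and 81.2, 77.9 and 116.5 in 96-well replicates 1 to 3, a 1.67-fold difference of means (1.37-fold without ALI replicate 2). The groups nearly separated, as 96-well replicate 3 passed ALI replicate 1 by a small margin. From −200 to 0 bp the Slbp difference was 1.53-fold. The summit bin did separate the cultures, at 154.9, 247.6 and 176.8 in ALI and 107.98, 106.3 and 150.5 in 96-well replicates 1 to 3, as for 5.96% of promoters with ALI higher. The part from −500 to −200 bp differed by 1.14-fold, by 0.956-fold without ALI replicate 2 and by 1.02-fold without 96-well replicate 1. The level shelf within it, from −400 to −280 bp, differed by 1.06-fold. No direction is read from either. The most upstream part, from −1000 to −500 bp, had a lower mean in ALI, at 2.32 ± 0.26 (SD, n = 3) against 3.24 ± 0.60, a ratio of 0.716, with overlapping groups. That part ranged from 0.648 to 0.770 with each library left out in turn. From 500 to 1000 bp the ratio was 1.01 and lay between 0.817 and 1.15 with single libraries left out, on both sides of 1.

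At Lsm10 the part that separated the cultures was upstream of the peak. From −500 to −200 bp the signal was 5.38, 7.46 and 5.62 in ALI replicates 1 to 3 and 3.11, 3.44 and 4.203 in 96-well replicates 1 to 3. Every ALI library was above every 96-well library on the deposited scale, which 6.81% of promoters share for this part. The difference was 1.72-fold, 1.53-fold without ALI replicate 2 and 1.68-fold without that library and 96-well replicate 3 together. A run of 19 bins from −560 to −180 bp had non-overlapping groups on the deposited scale, and 4 promoters of the table had a run that long with ALI higher. After centring, the longest such run was 24 bins at Lsm10, which 21 promoters reached, and 25 bins at Slbp, which 19 reached. In all, 25 of the 100 Lsm10 bins were higher and 1 lower in every ALI library, against 9 and 6 for Slbp, where 5.34% and 5.72% of all promoter bins were. After centring these counts were 45 and 6 for Lsm10 and 25 and 25 for Slbp, against 8.79% and 14.5% of all bins. Neighbouring bins are not independent, so these shares are no yardstick for the count of 1 promoter. By the number of bins higher in ALI, Lsm10 ranked 8 and Slbp 46 among all promoters, and 3 and 31 after centring. The Lsm10 level from −500 to −200 bp is low, well under the summit means of 94.3 in ALI and 58.7 in 96-well libraries. The peak itself differed by 1.66-fold from −200 to 0 bp and 1.56-fold from 0 to 200 bp, with overlapping groups (1.35-fold and 1.32-fold without ALI replicate 2). The most upstream part differed by 1.04-fold and the part from 500 to 1000 bp by 1.04-fold, or 0.828-fold without 96-well replicate 2.

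After centring, the parts from −200 to 0, 0 to 200 and 200 to 500 bp had non-overlapping groups with ALI higher at both genes, as for 20.9%, 19.1% and 13.6% of all promoters. The part from −500 to −200 bp was separated at Lsm10 (change 0.46, rank 10; 10.6% of promoters) but not at Slbp, where the change was 8.7e-05. The Slbp change from 0 to 200 bp, 0.54, ranked 4. Centred window changes rose with signal across promoters, and Slbp ranked 2 in signal of the central 400 bp. The parts were not put on a scale that removes this relation, so nothing is read from that rank. The most upstream part was separated with ALI lower at Slbp (−0.51; 17.4% of promoters) and overlapped at Lsm10 (−0.13).

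**Figure D5:**
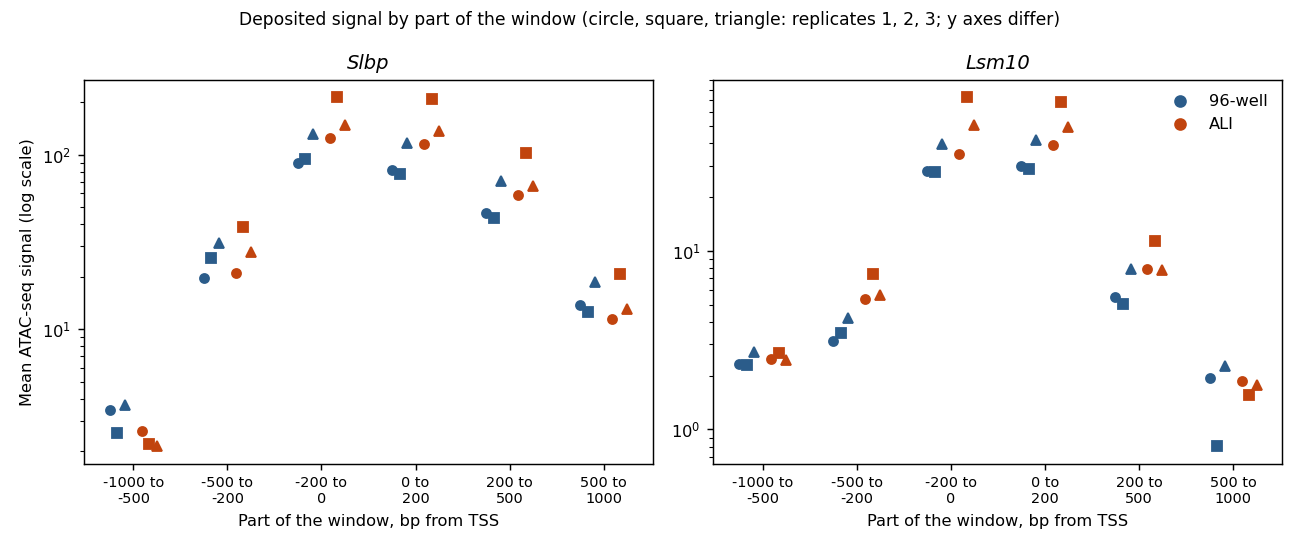
Mean deposited signal (log axis) in 6 parts of the window, by distance from the TSS (bp), for Slbp (left) and Lsm10 (right) in 96-well (blue) and ALI (orange-red) libraries, with 1 symbol per library and different y axes. At Lsm10 the part from −500 to −200 bp shows 3 ALI libraries (5.38 to 7.46) above 3 96-well libraries (3.11 to 4.203).

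The distribution of signal within the window, which needs no scaling between libraries, also differed between cultures at Slbp. Its central parts held more of the window's signal in ALI. From 0 to 200 bp lay 25.4% ± 0.56 (SD, n = 3) of the Slbp signal in 96-well and 29.6% ± 0.49 in ALI libraries, and the groups did not overlap, as for 17.9% of promoters in that direction. The most upstream part held less at both genes. It held 1.20% ± 0.43 in ALI against 2.28% ± 0.43 at Slbp, and 4.77% ± 1.09 against 6.87% ± 0.71 at Lsm10. The groups did not overlap at either gene, as for 20.4% of promoters. The shift was −1.07 percentage points at Slbp and −2.10 at Lsm10, and the median promoter's was −0.91, close to that of Slbp. From 500 to 1000 bp lay 7.29% ± 0.25 of the Slbp signal in ALI and 10.4% ± 0.59 in 96-well libraries. These groups again did not overlap, as for 28.5% of promoters in that direction. From 0 to 200 and from 500 to 1000 bp the median promoter shifted the same way, by 0.82 and −1.33 percentage points, and Slbp by 4.198 and −3.12. At Lsm10 the shares of the same 2 parts overlapped, at 37.6% ± 0.26 against 37.1% ± 0.48 and 3.34% ± 1.13 against 4.53% ± 1.71. Its share from −500 to −200 bp overlapped too, at 6.81% ± 0.78 in ALI against 6.03% ± 0.61 in 96-well libraries. At Slbp the mean share of that part was lower in ALI, at 8.47% ± 0.49 against 10.6% ± 1.42. That shift was −2.17 points, and the median promoter's was −0.30.

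Both peaks stood higher over their flanks in ALI. The Slbp ratio of the central 400 bp to the flanks was 25.8, 36.2 and 30.8 in ALI replicates 1 to 3 and 13.1, 16.6 and 18.8 in 96-well replicates 1 to 3. The Lsm10 ratio was 23.5, 45.8 and 32.1 in ALI and 17.2, 18.5 and 18.2 in 96-well libraries. Neither gene's groups overlapped, as for 27.2% of promoters with ALI higher. The ratio over the whole table moved with this, 1.19-fold higher in ALI. Divided by that library-wide ratio, the Slbp ratio was 3.36 ± 0.43 (SD, n = 3) in 96-well and 5.41 ± 0.40 in ALI libraries. The Lsm10 ratio was then 3.75 ± 0.18 and 5.85 ± 1.38. The groups still did not overlap. How many promoters separate after this division was not computed, so nothing is read from it. With the pseudocount added to both signals, unlike the ratios above, the log2 ratio changed by 0.89 at Slbp and 0.77 at Lsm10, ranks 2 and 10 among all promoters. Peak width did not separate the cultures at either gene. It averaged 470.8 ± 11.6 bp in 96-well and 458.3 ± 12.1 bp in ALI libraries for Slbp, and 213.7 ± 9.87 and 216.5 ± 5.55 bp for Lsm10. Of all promoters, 7.66% had wider and 11.9% narrower peaks in every ALI library.

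The promoters most like each gene were named as a description, by Pearson's r of centred log2 signal over the 6 libraries, which share depth and peak strength. For Slbp these were Dok2 (r = 0.996), Canx (0.989) and Zfp711 (0.985), and for Lsm10 they were Btbd6 (0.974), Mrpl32 (0.974) and Zfp711 (0.965). The r between Slbp and Lsm10 was 0.957. By the shape of the mean profile over the 100 bins, Slbp was nearest to Ak3 (0.984), Rnf111 (0.982) and Notch2 (0.975), and Lsm10 to Nelfcd (0.975), Ackr3 (0.974) and Dnaaf11 (0.971). Centred changes were −0.13, −0.00049 and 0.02 at the 3 nearest to Slbp in shape and −0.19, −0.15 and −0.16 at the 3 nearest to Lsm10. The promoters alike over the libraries had changes of 0.20 (Dok2), 0.21 (Canx), 0.36 (Zfp711), 0.16 (Btbd6) and 0.23 (Mrpl32). Slbp had 0.32 and Lsm10 0.38. The members were chosen with this contrast known, and likeness over the libraries takes it in, so nothing is read from these gaps.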

How the data were processed

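Values are the authors' depth-normalized coverage signal in 20 bp bins up to 1000 bp on each side of each TSS, per the file headers, which do not give the formula. The submitters' processing notes name, without roles, deepTools 3.5.1, Picard, SAMtools 1.16.1, Bowtie2 2.5.1 and Trim Galore 0.6.10, with the build GRCm39. Tn5 offset correction, duplicate filtering and the choice of the genes are not given in the sources used here. Low values were whole multiples of 1 step per library to within 0.1 of a step (100%), which gave relative depth. Total reads are unknown, coverage is not a count, and no count test was run.

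Between cultures, log2(mean window signal + 1.06), the pseudocount being 0.1 of the median promoter signal, was fitted with limma 3.58.1 in R 4.3.3 (eBayes with trend, Benjamini-Hochberg over all promoters), on the deposited scale and after alternative scalings. limma took each promoter's variance wholly from the trend on the deposited and centred values. Median centring subtracted each library's median log2 deviation from the promoter means. Lsm10 and Slbp were compared within libraries by exact sign-flip permutation over 64 sign patterns, without a pseudocount. The computations were tested on simulated data. Named genes were both members, the 3 promoters most like each by both measures, and RefSeq neighbours. The members, lists and tests were chosen with earlier results of these data known. Parts with libraries left out, the centred central 400 bp and the ZNF143 motif were added after the data were seen.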

Additional observations from a re-analysis of the deposited data

How the results depend on the processing

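The Lsm10 change between cultures stayed positive under all 25 alternative settings run. It moved by less than the deposited-scale SD within cultures (0.32), as did the Slbp change (SD 0.36) in 23 of 25. The exceptions were quantile normalization (0.070) and cyclic loess (0.051). That SD includes library level, and after centring it was 0.10 at Lsm10 and 0.12 at Slbp. Some settings, such as the replicate block, alter only the standard error and cannot move a change. Lsm10 was chosen for its higher signal in ALI, so nothing is read from its constant sign. With 1 library left out on the deposited scale, the Lsm10 change ranged from 0.36 to 0.72 and the Slbp change from 0.26 to 0.66. limma called 0 promoters on the deposited scale, also with each library left out (range 0 to 0), but 51 after median centring, 38 after quantile normalization, 73 with equal flanks, 61 after cyclic loess, and 60 with the centred central 400 bp. Centring with each library left out gave 50, 53 and 40 without ALI replicates 1, 2 and 3 and 22, 25 and 58 without 96-well replicates 1, 2 and 3. Lsm10 was among the calls in each of these scaled fits. Slbp was not after quantile normalization, cyclic loess or centring without ALI replicate 3, 96-well replicate 1 or 96-well replicate 2. A replicate block gave 0 calls on the deposited scale and 39 after centring, Slbp not among them. After centring with eBayes run without its trend, 0 promoters were called. Since the genes were chosen with this contrast known, nothing is read from their calls. The labels do not say whether equal numbers pair the samples. Same-numbered libraries deviated with r of 0.67, −0.61 and −0.60, and ALI replicate 2 and 96-well replicate 3 with 0.81. These values cannot decide a pairing, since likeness of signal does not record how samples were collected.

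Leaving out 1 library takes the smallest exact permutation p to 0.0625, so no comparison of Lsm10 with Slbp can pass then. The differences ranged from −1.97 to −1.93 for the window, −1.61 to −1.58 for the central 400 bp, −1.76 to −1.68 for the flanks, 0.07 to 0.18 for the ratio of centre to flanks, −1.07 to −1.01 for the summit, −254.1 to −247.6 bp for width and −7.33 to −6.40 points for the downstream share. The ratio passed in opposite directions at −0.30 with the pseudocount and at 0.57 with the central 200 bp, and the downstream share fell short in the inner 1000 bp (−2.84); the cause was not tested. Depth limits the flanks of Lsm10 most, at 10.8 to 20.8 reads per base.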
